A study of Mus musculus with 17 samples.

Results

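The mitochondrial SLC25 carriers were followed in heart tissue of *Polg*hMut mice (hMut) and control mice (Ctrl). Members were the protein-coding genes of the count table whose symbol begins with Slc25a, without regard to their values. This gave 47 of the 56748 genes in the table, and 39 of the 47 passed the filter on low counts and were tested together with all other genes, 16195 in total. Each member was placed in a substrate class (nucleotide, amino acid, carboxylate, metal, cofactor, phosphate, acylcarnitine, uncoupling-protein-like or orphan) from textbook knowledge of its substrate. Polyadenylated RNA had been sequenced from 9 hMut and 8 Ctrl hearts, with 1 library per mouse, at 12 to 16 months of age. The hMut mice carry the inducible *Polg* iMut allele in homozygous form together with the Ckmm-cre transgene, so that the proofreading-deficient mtDNA polymerase is expressed where the muscle creatine kinase promoter is active, which in the heart is in cardiomyocytes. The genotype of the Ctrl mice behind these libraries is not stated in the sources used here beyond the word control, and no treatment was given to either group. The comparison asks which carriers differ in transcript level between hearts with and without induced mtDNA mutagenesis.

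SLC25 carriers are nuclear-encoded proteins that, with few exceptions, sit in the inner mitochondrial membrane and exchange small molecules between the matrix and the cytosol. They are built from repeated modules of paired transmembrane helices around a central binding site that opens to one side of the membrane at a time. The heart depends on them to bring ADP, phosphate and acylcarnitines into the matrix, to return ATP to the cytosol, and to move reducing equivalents by the malate-aspartate shuttle.

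The ADP/ATP carrier *Slc25a4* had the most abundant transcript of the family, and its paralog *Slc25a5* held place 4 per unit of length in Ctrl hearts. The ratio of this pair had the smallest p of the 8 paralog ratios tested by exact permutation, while *Slc25a4* itself did not pass the test. *Slc25a4* encodes ANT1, the isoform typical of heart and skeletal muscle, and *Slc25a5* encodes ANT2, the isoform typical of proliferating and non-muscle cells. Their coding sequences (stop codon left out) each span 4 coding exons and 894 bases in the GENCODE vM39 annotation of GRCm39, and they differ at 202 of these bases (77.4% identical without gaps). The first coding exon of each is shown so that the spacing of the differences can be seen, with the 25 bases of 111 that differ between them in capitals. *Slc25a4* is read from chr8:46663849-46663959 on the minus strand and *Slc25a5* from chrX:36059384-36059494 on the plus strand.
Slc25a4: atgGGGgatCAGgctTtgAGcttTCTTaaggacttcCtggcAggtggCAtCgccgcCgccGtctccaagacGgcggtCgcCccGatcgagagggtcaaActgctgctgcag
Slc25a5: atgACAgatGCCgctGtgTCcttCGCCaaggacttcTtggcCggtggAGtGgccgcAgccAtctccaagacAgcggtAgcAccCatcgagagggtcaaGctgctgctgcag
The longest run of identical bases between any annotated transcripts of the pair was 23 bases, and no stretch of 100 bases of *Slc25a4* occurred in a transcript of another gene. Of the 2831 stretches of 100 bases in *Slc25a5* transcripts, 137 (4.84%) also occurred in annotated pseudogene transcripts. The most highly counted of these pseudogenes, *Gm5529*, had 85 to 134 counts in Ctrl and 116 to 193 in hMut hearts, against 6629 to 14270 counts for *Slc25a5* over all 17 hearts. *Gm5529* was picked out after its values were seen.

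Across the 17 libraries, total counts lay between 32915159 and 46486964. Transcripts encoded by mtDNA took 23.5% to 30.9% of the counts in Ctrl and 15.9% to 23.0% in hMut hearts. *Polg* itself lay between 27.1 and 47.2 counts per 1000000 (CPM, scaled library size) in Ctrl and between 47.0 and 65.1 CPM in hMut hearts, with 8 of 9 hMut hearts above every Ctrl heart. Its log2 fold change, hMut minus Ctrl, was 0.74 (adjusted p = 0.000448 by edgeR). The mutated form differs by a point change that a count per gene cannot show. As the study describes the allele, cre also removes an inserted cDNA cassette with a growth hormone polyadenylation signal. The part of this in the *Polg* counts was not tested. All 10 cardiomyocyte markers were highly counted in every heart, whereas the atrial markers *Myl7* and *Sln* were at or near 0. Of the other atrial markers, *Myl4* had 38 to 94 counts and *Nppa*, which ventricles under load also express, had 1443 to 28912. The hearts hMut 6 and hMut 9 stood apart. The summed CPM of the cardiomyocyte markers was 40480 and 38980 in them, against 51360 to 61810 in Ctrl and 51590 to 61250 in the other 7 hMut hearts. The 8 myeloid markers summed to 1196 and 613 CPM in the same hearts, against 222 to 336 in the Ctrl group and 281 to 383 in the other 7, and the 6 fibroblast markers to 1747 and 1370 CPM, against a Ctrl range of 853 to 1020 and a range of 862 to 1056 in the other 7. Every myeloid and fibroblast marker was above 0 in every heart. The summed atrial markers were also highest in these hearts, at 687 and 425 CPM, against 38.3 to 165.9 in Ctrl and 77.7 to 233 in the other 7. This sum was nearly all *Nppa*, which reached 685 CPM in hMut hearts. The highest hMut values of *Myl4*, *Myl7* and *Sln* were 2.27, 0.514 and 0.271 CPM. Values are also given without hMut 6 and hMut 9 where leaving them out moved a value by over 1.5 times or changed a call.

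*Slc25a5* and *Slc25a39* rose in hMut hearts and *Slc25a28* fell, and no other member passed an adjusted p of 0.05 in the quasi-likelihood test of edgeR, adjusted by Benjamini-Hochberg over all genes. The 2 members that rose compare with 3.48% of all tested genes called higher, and the 1 that fell with 1.14% called lower, and counts this small do not set the family apart from the background. In 0 members did the CPM ranges of the groups fail to overlap, against 0.605% of all tested genes. The log2 fold change (hMut minus Ctrl throughout) was negative in 28 and positive in 11 of the 39 tested members, that is negative in 71.8%, compared with 49.5% of all tested genes. The median over the tested members was -0.12, beside 0.00 over all genes, and it became 0.11 when the libraries were scaled on the cardiomyocyte markers, a scaling that moved the median of all genes up by 0.23. At an unadjusted p under 0.05, 5 members were higher and 11 lower (41.0% of the tested members, against 25.8% of all tested genes). Without hMut 6 and hMut 9 the median over the members was -0.06, and 2 members were called higher and 0 lower. The call that was lost was that of *Slc25a28*, whose log2 fold change was then -0.25 (adjusted p = 0.0546) and -0.23 with all hearts.

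**Figure D1:**
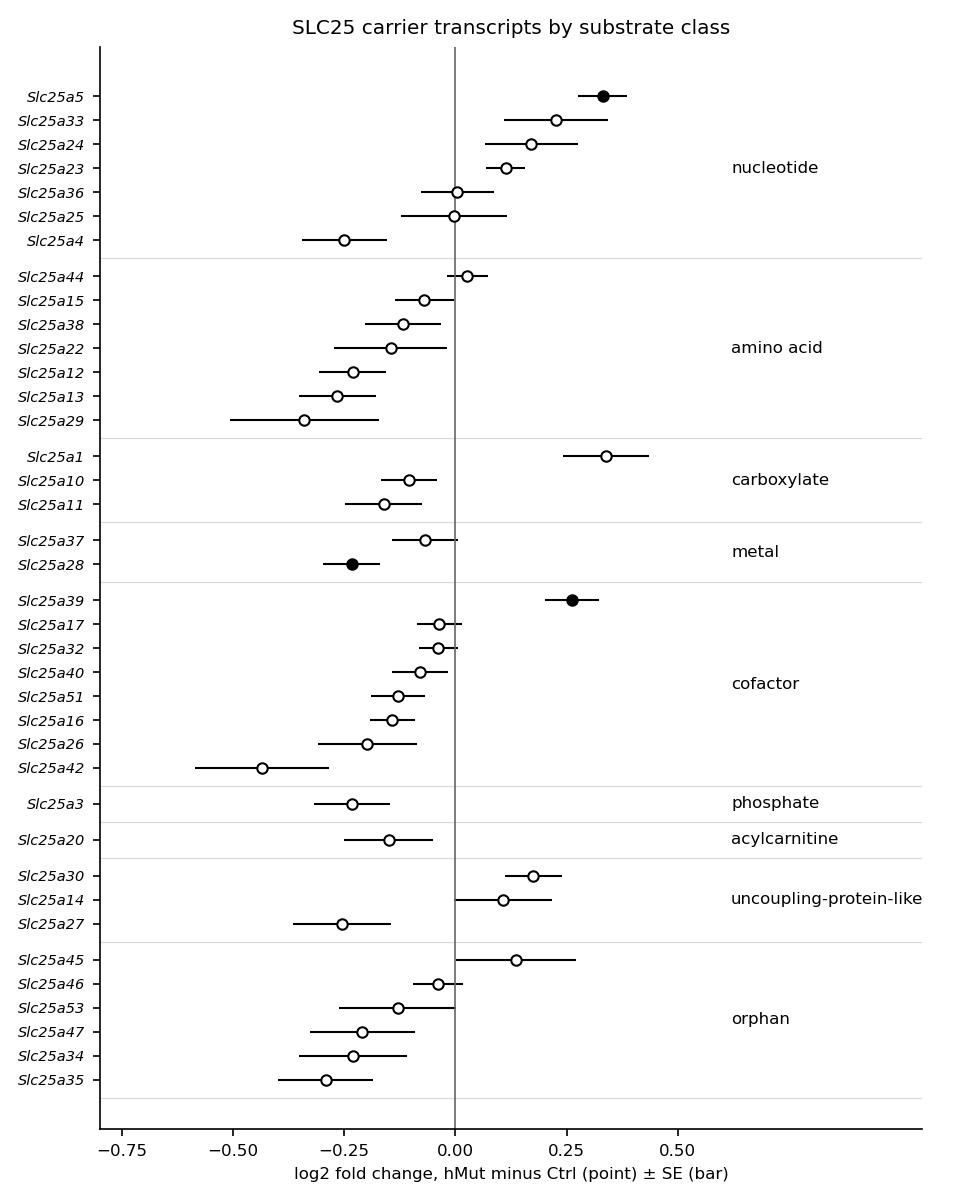
Log2 fold change of 38 of the 39 tested SLC25 members, hMut minus Ctrl (horizontal axis), with its standard error as a bar, grouped by substrate class. Filled points passed an adjusted p of 0.05: *Slc25a5* at 0.33, *Slc25a39* at 0.26 and *Slc25a28* at -0.23. Of the members drawn, 27 lie to the left of 0. Scaling on cardiomyocyte markers moves the median over the 39 from -0.12 to 0.11.

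By class, the median log2 fold change was 0.11 for the nucleotide carriers and 0.11 for the uncoupling-protein-like members. It was -0.15 for amino acid carriers, -0.10 for carboxylate carriers, -0.15 for the metal carriers, -0.13 for cofactor carriers and -0.17 for the orphan members, and the first 4 of these turned positive (0.08, 0.12, 0.08 and 0.09) with the cardiomyocyte scaling, below its shift of 0.23 for all genes. Without hMut 6 and hMut 9 the medians were nearer to 0 for the nucleotide (0.07), carboxylate (-0.06) and cofactor (-0.07) carriers, and -0.12 and -0.18 for the amino acid and metal carriers. The medians of the uncoupling-protein-like and orphan members were not computed under these alternatives. The nucleotide class had 10 members, of which 7 were tested, 1 rose and 0 fell. Of 9 amino acid carriers 7 were tested, and of 4 carboxylate carriers 3 were tested, and none of these passed the test. Both metal carriers were tested and 1 fell. All 9 cofactor carriers were tested and 1 rose. In bulk hearts, fewer cells of a type and less RNA per cell cannot be told apart, which bears on every level given here.

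Among the ADP/ATP carriers, the CPM of *Slc25a5* (ENSMUSG00000016319, chrX:36059304-36062460, plus strand of GRCm39) had a lowest value of 210.2, a median of 231.7 and a highest value of 251.7 in Ctrl hearts. In hMut hearts the lowest was 248.7, the median 285.2 and the highest 322.8. Only the lowest hMut heart, hMut 8, lay inside the Ctrl range, and the 2 highest values, 322.8 and 321.7, belonged to hMut 6 and hMut 9. The mean rose from 229 ± 14.4 (SD, n = 8) to 289 ± 25.2 (SD, n = 9), a log2 fold change of 0.33 (SE 0.06, adjusted p = 0.00173 by edgeR). Leaving out hMut 6 and hMut 9, in which the myeloid and fibroblast markers were highest, gave 0.28 (adjusted p = 0.00321 by edgeR), and *Slc25a5* passed under each library left out in turn, with adjusted p between 0.000696 and 0.00559. The 8 myeloid markers all had positive log2 fold changes with a median of 0.59, and 5 of 6 fibroblast markers were positive with a median of 0.31, none of them past the threshold. Of the 6 endothelial markers 5 were positive with a median of 0.10, their summed CPM lay above every Ctrl heart in 4 of 9 hMut hearts, and *Kdr* rose (0.39, adjusted p = 0.0407 by edgeR). The part of these cell types in the rise of *Slc25a5* was not tested.

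*Slc25a4* (ENSMUSG00000031633, chr8:46659834-46664321, minus strand) had a negative log2 fold change and did not pass the test. Its CPM had a lowest value of 4002, a median of 4406 and a highest value of 4784 in Ctrl hearts, and a lowest of 2612, a median of 3798 and a highest of 4650 in hMut hearts. The 2 lowest hearts were hMut 6 at 2612 and hMut 9 at 2749, and 7 of 9 hMut hearts lay below every Ctrl heart. The log2 fold change was -0.25 (SE 0.10, adjusted p = 0.124 by edgeR), and it was -0.14 (adjusted p = 0.180) without hMut 6 and hMut 9. Without hMut 2, whose 4650 CPM was the highest of its group, the value was -0.30 with adjusted p = 0.0429. Leaving out hMut 2 also raised the calls over all genes from 749 to 1792, which bears on every call given without this heart. With all hearts kept, limma voom with sample quality weights gave -0.19 (adjusted p = 0.0339).

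**Figure D2:**
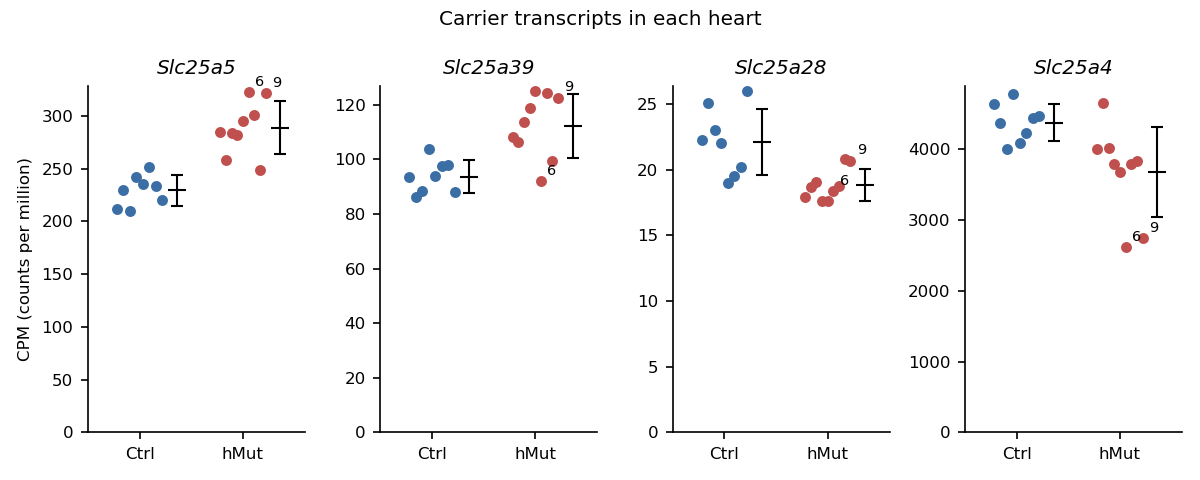
CPM in each heart (points, Ctrl blue and hMut red) of the 3 called members and of *Slc25a4*, with the mean and SD of each group beside the points and every vertical axis starting at 0. The numerals 6 and 9 mark hMut 6 and hMut 9. *Slc25a5* is highest and *Slc25a4* lowest in these 2 hearts.

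The balance of the pair within a heart needs no scaling between libraries. Per unit of gene length, Ctrl hearts held 7.51 ± 0.631 (SD, n = 8) *Slc25a5* transcripts per 100 of *Slc25a4*, with a range of 6.53 to 8.52. In hMut hearts the figure was 11.7 ± 3.3 (SD, n = 9), with a range of 7.93 to 17.7. Again 8 of 9 hMut hearts exceeded every Ctrl heart, the exception being hMut 2 at 7.93, and hMut 6 (17.7) and hMut 9 (16.7) were the highest. On the log2 scale of counts the ratio was higher in hMut by 0.60 (two-sided exact permutation p = 0.000288, adjusted p = 0.0023 over 8 paralog pairs; the smallest p these group sizes allow is 4.11e-05). Without hMut 6 and hMut 9 the difference was 0.43 (exact permutation p = 0.000622, adjusted p = 0.00497). The third paralog, *Slc25a31* (ANT4, of the male germ line), had 0 to 19 counts and was not tested.

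**Figure D3:**
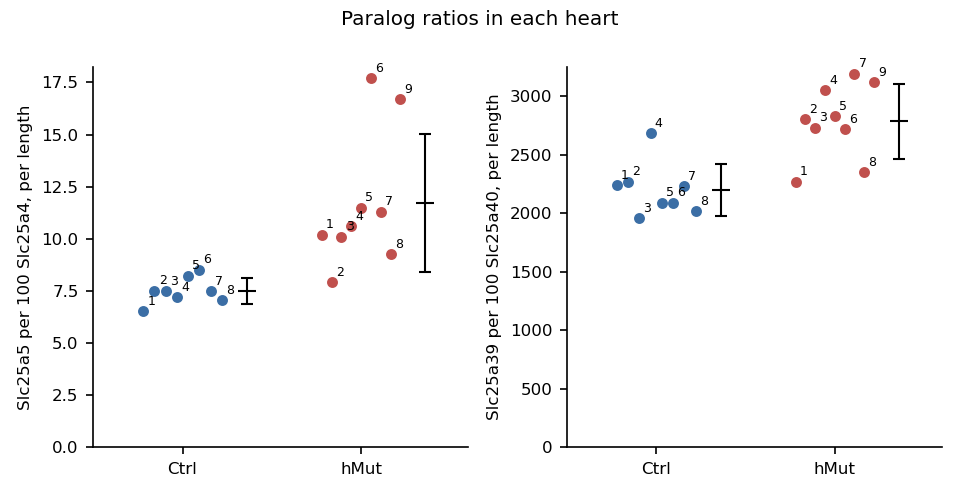
Transcripts of *Slc25a5* per 100 of *Slc25a4* (left) and of *Slc25a39* per 100 of *Slc25a40* (right), per unit of gene length, in each heart, numbered by replicate, with the mean and SD of each group. In the left plot the Ctrl hearts sit between 6.53 and 8.52 and 8 of 9 hMut hearts lie above them; in the right plot 7 of 9 hMut hearts lie above the highest Ctrl heart.

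The other nucleotide carriers exchange ATP-Mg for phosphate (*Slc25a23*, *Slc25a24*, *Slc25a25*, which are regulated by calcium) or carry pyrimidine nucleotides (*Slc25a33*, *Slc25a36*). *Slc25a23* had 46.4, 50.9 and 55.3 CPM as the lowest, median and highest value in Ctrl and 51.6, 55.4 and 58.7 in hMut hearts. Its log2 fold change was 0.11 (SE 0.04, adjusted p = 0.124 by edgeR), with 5 of 9 hMut hearts above the Ctrl range. *Slc25a33* had 10.2, 13.2 and 15.3 CPM in Ctrl and 12.2, 14.6 and 21.8 in hMut hearts, a log2 fold change of 0.23 (SE 0.12, adjusted p = 0.226). The highest of these values, 21.8 CPM, was that of hMut 8. The values of the pyrimidine carrier *Slc25a36* (0.0046, adjusted p = 0.981 by edgeR) and of *Slc25a25* (-0.0031, adjusted p = 0.991) were near 0, changed sign with single libraries left out and were -0.04 and -0.05 without hMut 6 and hMut 9. *Slc25a24* gave 0.17 (adjusted p = 0.302), or 0.07 (adjusted p = 0.734) without hMut 6, its highest heart at 13.9 CPM, and hMut 9. *Slc25a25* shares 989 bases with *Naif1* on the opposite strand, so its counts are uncertain. None of the ratios *Slc25a33* to *Slc25a36* (0.22, adjusted exact permutation p = 0.555), *Slc25a25* to *Slc25a23* (-0.11, adjusted exact permutation p = 0.555) and *Slc25a24* to *Slc25a23* (0.04, adjusted exact permutation p = 0.699) differed beyond the spread between hearts. The last of these became -0.02 without hMut 6 and -0.04 without hMut 6 and hMut 9.

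Phosphate for ATP synthesis enters through *Slc25a3*, which also carries copper. Its CPM had a lowest value of 1221, a median of 1291 and a highest of 1343 in Ctrl hearts, and 783, 1108 and 1333 in hMut hearts. Like *Slc25a4*, it was below every Ctrl heart in 7 of 9 hMut hearts and lowest in hMut 6 and hMut 9. The log2 fold change was -0.23 (SE 0.08, adjusted p = 0.108 by edgeR), -0.14 (adjusted p = 0.151) without these hearts, and -0.27 (adjusted p = 0.0392) without hMut 2. With all hearts kept, limma voom with sample quality weights gave -0.20 (adjusted p = 0.0179). The carnitine and acylcarnitine carrier *Slc25a20*, which brings long-chain fatty acids to β-oxidation, had 176, 205 and 233 CPM as the lowest, median and highest value in Ctrl and 126, 195 and 233 in hMut hearts. Its log2 fold change was -0.15 (SE 0.10, adjusted p = 0.337) and turned to 0.04 with the cardiomyocyte scaling. The lowest hearts were hMut 6 (126) and hMut 9 (136), and without them the value was -0.03 (adjusted p = 0.805).

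Of the amino acid carriers, *Slc25a12* (aralar) and *Slc25a13* (citrin) exchange aspartate for glutamate and form part of the malate-aspartate shuttle. *Slc25a12* had 231, 253 and 279 CPM as the lowest, median and highest value in Ctrl and 164, 222 and 261 in hMut hearts. It lay below every Ctrl heart in 7 of 9 hMut hearts, with a log2 fold change of -0.23 (SE 0.08, adjusted p = 0.0804 by edgeR). *Slc25a13* had 141, 163 and 177 CPM in Ctrl and 92.0, 140 and 160 in hMut hearts, a log2 fold change of -0.27 (SE 0.09, adjusted p = 0.0785 by edgeR), and 5 of 9 hMut hearts were below the Ctrl range. For both, the calls depended on the test and on single libraries. With all hearts kept, DESeq2 gave an adjusted p of 0.0472 for *Slc25a12* and 0.0434 for *Slc25a13*. Limma voom with sample quality weights gave 0.019 and 0.0232. By edgeR, *Slc25a12* passed without hMut 2 (adjusted p = 0.0262), and *Slc25a13* passed without hMut 1 (0.0412) or hMut 2 (0.0438). Without hMut 6 and hMut 9 the log2 fold changes were -0.14 (adjusted p = 0.119) and -0.18 (adjusted p = 0.116). The balance between the 2 within a heart was 123 ± 6.01 (SD, n = 8) *Slc25a13* transcripts per 100 of *Slc25a12* per unit of length in Ctrl and 120 ± 8.96 (SD, n = 9) in hMut hearts. Their log2 ratio gave a difference of -0.04 (p = 0.417 by exact permutation, 0.555 adjusted).

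The remaining tested amino acid carriers gave log2 fold changes from -0.34 to 0.03 and none passed the test. The glutamate carrier *Slc25a22* had 30.6, 35.7 and 63.4 CPM as the lowest, median and highest value in Ctrl and 32.6, 34.4 and 41.9 in hMut hearts, so that the hMut hearts all lay within the Ctrl range (-0.15, adjusted p = 0.473 by edgeR). Without Ctrl 5, which held the highest value, 63.4 CPM, the log2 fold change was -0.02 (adjusted p = 0.903). Its paralog *Slc25a18* had 4 to 13 counts and was not tested, and their log2 ratio differed by 0.17 (adjusted exact permutation p = 0.680), with values from 0.02 (without Ctrl 3) to 0.35 (without Ctrl 5) as single hearts were left out and 0.27 without hMut 6 and hMut 9. The basic amino acid carrier *Slc25a29*, the ornithine carrier *Slc25a15*, the glycine carrier *Slc25a38*, which supplies haem synthesis, and the branched-chain amino acid carrier *Slc25a44* completed this group.

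The carboxylate carriers did not share a direction and none passed the test. *Slc25a1*, the citrate carrier that exports citrate for fatty acid synthesis, was a transcript of low level, with 4.87, 5.73 and 7.48 CPM as the lowest, median and highest value in Ctrl and 5.94, 7.04 and 9.22 in hMut hearts. Its log2 fold change of 0.34 (SE 0.10) had an adjusted p of 0.0535 by edgeR, and it passed without Ctrl 3 (0.024), hMut 1 (0.0380), hMut 2 (0.0224) or hMut 8 (0.0496). Without hMut 6 and hMut 9 it was 0.27 (adjusted p = 0.134). *Slc25a11*, the oxoglutarate and malate carrier of the malate-aspartate shuttle, had 459, 496 and 518 CPM in Ctrl and 297, 455 and 532 in hMut hearts. Its log2 fold change was -0.16 (SE 0.09, adjusted p = 0.239), -0.06 without hMut 6 and hMut 9, and 0.04 with the cardiomyocyte scaling. *Slc25a11* overlaps *Rnf167* on the opposite strand by 245 bases, and whether the counting used strand is not stated in the sources used here. The dicarboxylate carrier *Slc25a10* did not pass the test, and *Slc25a21* was not tested at 0 to 9 counts.

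The metal carriers are the mitoferrins, which bring iron into the matrix for haem and iron-sulfur cluster synthesis. *Slc25a28* (mitoferrin 2, ENSMUSG00000040414, chr19:43652240-43663320, minus strand) had 19.0, 22.2 and 26.0 CPM as the lowest, median and highest value in Ctrl and 17.6, 18.7 and 20.8 in hMut hearts. In 6 of 9 hMut hearts it was below every Ctrl heart, and here hMut 6 (18.4) and hMut 9 (20.7) were not the lowest. The mean fell from 22.1 ± 2.51 (SD, n = 8) to 18.8 ± 1.20 (SD, n = 9), a log2 fold change of -0.23 (SE 0.06, adjusted p = 0.0434 by edgeR), which became 0.0011 with the cardiomyocyte scaling. The call was close to the threshold. It was lost when any of Ctrl 1, 2, 3, 4 or 8 or of hMut 3, 4, 5, 6 or 7 was left out, with the log2 fold change between -0.26 and -0.20 and the adjusted p between 0.0281 and 0.0834 over all 17 libraries left out in turn. *Slc25a37* (mitoferrin 1, prominent in erythroid cells) had 23.0, 25.0 and 31.4 CPM in Ctrl and 21.7, 24.5 and 30.5 in hMut hearts (-0.07, SE 0.07, adjusted p = 0.572), and -0.10 without hMut 6 and hMut 9. The log2 ratio of *Slc25a37* to *Slc25a28* was higher in hMut by 0.16, with an adjusted exact permutation p of 0.253.

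Among the cofactor carriers, *Slc25a39* and *Slc25a40* import glutathione, the main thiol antioxidant of the matrix. *Slc25a39* (ENSMUSG00000018677, chr11:102293811-102298772, minus strand) had 86.3, 93.6 and 103.9 CPM as the lowest, median and highest value in Ctrl and 92.0, 113.6 and 124.9 in hMut hearts. Here hMut 6 was the lowest hMut heart at 92.0 and hMut 9 was among the higher ones at 123, and 7 of 9 exceeded the whole Ctrl range. The mean rose from 93.6 ± 5.99 (SD, n = 8) to 112 ± 11.6 (SD, n = 9), a log2 fold change of 0.26 (SE 0.06, adjusted p = 0.0206 by edgeR), and 0.28 (adjusted p = 0.00706) without hMut 6 and hMut 9. With each library left out in turn it stayed past the threshold, at adjusted p between 0.00416 and 0.0464. *Slc25a40* had 11.6, 13.3 and 14.2 CPM in Ctrl and 10.3, 12.0 and 14.5 in hMut hearts (-0.08, SE 0.06, adjusted p = 0.426), and -0.04 without hMut 6 and hMut 9. The log2 ratio of *Slc25a39* to *Slc25a40* was higher in hMut by 0.34 (exact permutation p = 0.00123, adjusted p = 0.00494), with 7 of 9 hMut hearts above every Ctrl heart, and by 0.32 (adjusted p = 0.0137, exact permutation) without hMut 6 and hMut 9.

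No other cofactor carrier passed the test. *Slc25a42*, which carries coenzyme A and adenine nucleotides, had the most negative value of the tested members, -0.43 (SE 0.15, adjusted p = 0.0943 by edgeR), on 62.8, 78.8 and 112.8 CPM as the lowest, median and highest value in Ctrl and 33.8, 64.4 and 76.3 in hMut hearts. It was -0.28 (adjusted p = 0.154) without hMut 6 and hMut 9. *Slc25a16*, *Slc25a51* (NAD), *Slc25a26* (S-adenosylmethionine), *Slc25a32* (folate and FAD) and the peroxisomal *Slc25a17* ranged from -0.20 to -0.04. The lowest of these was *Slc25a26*, which shares 144 bases with the more highly counted *Lrig1* on the opposite strand, so its counts are uncertain.

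Of the members related to uncoupling proteins, whose substrates are not settled, *Slc25a30* had 10.8, 11.5 and 12.8 CPM as the lowest, median and highest value in Ctrl and 11.4, 13.3 and 16.4 in hMut hearts. Its log2 fold change was 0.18 (SE 0.06, adjusted p = 0.110 by edgeR), and without hMut 2 the adjusted p was 0.0481. *Slc25a27* gave -0.26 (SE 0.11, adjusted p = 0.157) on 98 to 205 counts per heart. Among the orphan members, *Slc25a34* had 151, 170 and 223 CPM in Ctrl and 102, 154 and 195 in hMut hearts (-0.23, SE 0.12, adjusted p = 0.234). The lowest of these were hMut 6 (105) and hMut 9 (102), and without them the value was -0.10 (adjusted p = 0.553). *Slc25a35* had 5.15, 6.87 and 7.81 CPM in Ctrl and 4.10, 5.37 and 6.96 in hMut hearts (-0.29, SE 0.11, adjusted p = 0.109). Without hMut 2, *Slc25a35* passed with an adjusted p of 0.0398.

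The 8 untested members were *Slc25a2*, *Slc25a18*, *Slc25a21*, *Slc25a31*, *Slc25a41*, *Slc25a43*, *Slc25a48* and *Slc25a54*, with at most 19 counts in any heart. *Slc25a54* had 0 counts in all 17 hearts, where 3 counts, the limit that a count of 0 allows, correspond to 0.0645 to 0.0911 CPM. These limits cover counting error only.

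The pattern across hearts was uneven. In 15 of the 39 tested members hMut 6 and hMut 9 were the 2 lowest hMut hearts, among them *Slc25a4*, *Slc25a3*, *Slc25a11*, *Slc25a12*, *Slc25a13* and *Slc25a20*. In 3 members, *Slc25a5*, *Slc25a1* and *Slc25a45*, they were the 2 highest. The same counts were not made over all tested genes, so they do not set the family apart. These 2 hearts were picked out from the same data. Over the tested members, the median deviation of log2 CPM from the Ctrl mean was -0.26 in hMut 6 and -0.12 in hMut 9. It lay between -0.05 and 0.03 in Ctrl hearts with the other 7 hMut hearts ranging from -0.09 to 0.04. The family took 0.996% to 1.06% of the counts of nuclear genes in Ctrl hearts, 0.720% in hMut 6 and 0.805% in hMut 9, and 0.925% to 1.06% in the other hMut hearts, so that 7 of 9 hMut hearts were below every Ctrl heart. This share is weighted to *Slc25a4*, which made up 54.15% of the family by CPM in Ctrl. *Slc25a4* alone was also below every Ctrl heart in 7 of 9 hMut hearts. The cardiomyocyte markers were lowest in the same 2 hearts (40480 and 38980 CPM summed), and over all hearts their 10 log2 fold changes were all negative with a median of -0.24 and 0 called. Their part in the lower carrier levels was not tested.

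**Figure D4:**
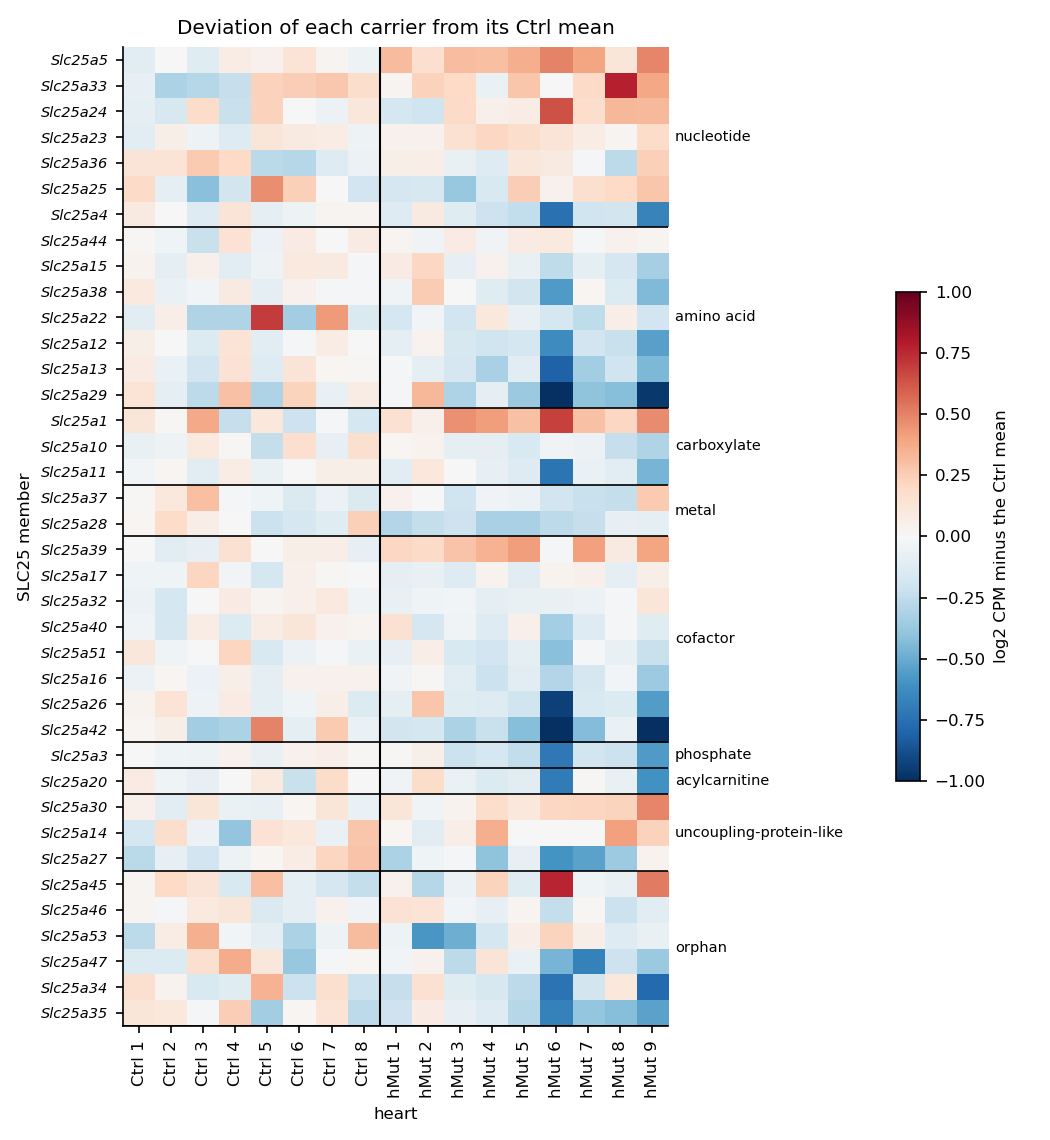
Log2 CPM of 38 of the 39 tested members minus the Ctrl mean of each (colour, red higher and blue lower, with values past 1 or -1 shown in the end colour) in each heart (columns), grouped by substrate class. In 15 rows hMut 6 and hMut 9 are the 2 lowest hMut hearts, a count not made over all genes. *Slc25a5* is above its Ctrl mean in every hMut heart and highest in these 2.

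Levels of different carriers were compared per length, as TPM, that is counts per length scaled to the same total over protein-coding genes in each heart. *Slc25a4* had 4238 ± 290 TPM (SD, n = 8) in Ctrl hearts and made up 65.2% of the summed family level, and 62.2% in hMut hearts. Far below it followed the level of *Slc25a11* at 531 ± 31.4 TPM, *Slc25a3* at 527 ± 28.3, *Slc25a5* at 318 ± 31.0 and *Slc25a34* at 151 ± 27.3 (SD, n = 8 each). The levels of *Slc25a11* and *Slc25a3* did not differ beyond their spread between hearts, which does not cover error in gene length. They rest on lengths of 2120 and 5550 bases. By CPM, which does not use length, the Ctrl mean was 494 for *Slc25a11* and 1284 for *Slc25a3*. Places and shares by TPM depend on these lengths in the same way. *Slc25a5* held the fourth place in both groups with 4.90% of the family level in Ctrl and 7.22% in hMut hearts. *Slc25a39* moved from place 9 in Ctrl to place 6 in hMut hearts, with 1.19% and 1.65% of the family level. Because mtDNA-encoded mRNAs take part in the TPM total and were less counted in hMut hearts, the summed TPM of the family was 6496 ± 405 (SD, n = 8) in Ctrl and 6906 ± 570 (SD, n = 9) in hMut hearts, and the order of these group means was the opposite without mtDNA-encoded genes, at 12860 ± 373 and 11600 ± 1235. TPM levels are therefore read here within a group and as shares of the family.

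**Figure D5:**
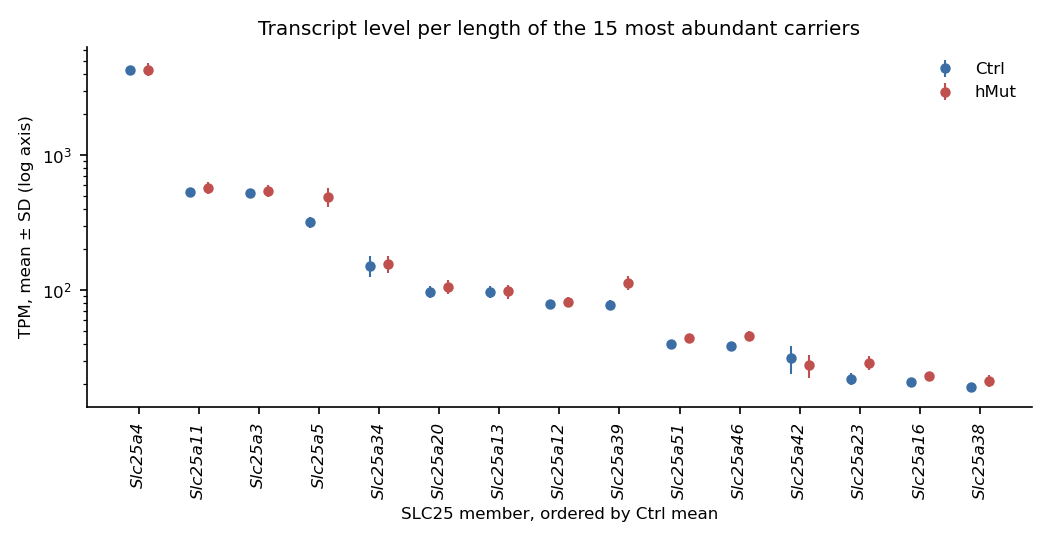
Transcript level per length (TPM, log axis, mean and SD) of the 15 most abundant members in Ctrl (blue, n = 8) and hMut (red, n = 9) hearts, ordered by the Ctrl mean. *Slc25a4* stands at 4238 TPM in Ctrl, followed by *Slc25a11*, *Slc25a3* and *Slc25a5* between 318 and 531 TPM.

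Genes beside the family gave few calls. Of the SLC25-fold genes with other symbols, *Ucp2*, *Ucp3*, *Mtch1* and *Mtch2* were tested and 0 passed (median -0.01). Of 7 tested inner membrane carriers of other families, among them the mitochondrial pyruvate carrier subunits *Mpc1* and *Mpc2* and the sideroflexins, 0 passed (median -0.16). Of 6 enzymes of the malate-aspartate and glycerol phosphate shuttles, which work with *Slc25a11*, *Slc25a12* and *Slc25a13*, 0 passed (median -0.07). The summed CPM of the shuttle enzymes was 3179 and 3145 in hMut 6 and hMut 9, against 4032 to 4756 in Ctrl and 4043 to 4851 in the other hMut hearts.

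Promoters from RefSeq on GRCm38.p6, each of 300 bases around an annotated start, were found for 36 of the 47 members. They were searched on both strands for TGATGCAA (core of the ATF4 response element), CGCATGCG (NRF1 core) and TCAAGGTCA (ERR response element). None of the 36 members held any of the 3 motifs in this window, against 0.895%, 1.87% and 0.423% of all 32851 promoters. This says only that these letters are not in these windows.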

How the data were processed

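The deposited file held raw counts per gene, which the authors had made from poly(A)-selected libraries with fastp, HISAT2 (version 2.2.1, GRCm39) and featureCounts (version 2.0.6), per the labels. Strand use in counting is not given in the sources used here. All per-sample columns were matched to the labels. Counts were tested with edgeR (version 4.0.16, R 4.3.3) by filterByExpr, TMM and the quasi-likelihood test with genotype as the only term, adjusted by Benjamini-Hochberg over 16195 genes at 0.05, and the test was tried on simulated data. The SE was derived from the log2 fold change and the F statistic (absolute change over the root of F). CPM used TMM-scaled library sizes, and TPM used the gene lengths of the file. Ratios of paralogs (0.5 counts added) were tested by exact permutation over 24310 regroupings of the hearts. P-values set the difference between groups against the variation between mice, and ranges of total counts are given in the report.

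Members, classes and lists were chosen with earlier results of these data known. Members were named if they passed the threshold, were among the 5 highest in TPM or the 2 smallest p of a class, or belonged to a paralog pair. Genes of other lists were named with values only if past the threshold, up to 3 per list. Exceptions were the atrial markers, given as a check of the tissue, and other genes were named as examples without values. The 1 gene of these lists past the threshold was the endothelial marker *Kdr* (log2 fold change 0.39, adjusted p = 0.0407 by edgeR), and the summed endothelial markers lay between 736 and 936 CPM in Ctrl and between 817 and 1097 CPM in hMut hearts. The summed erythroid markers lay between 250 and 1379 CPM in Ctrl and between 282 and 1089 CPM in hMut, adipocyte markers between 18.6 and 26.9 and between 22.4 and 29.7, lymphoid markers between 1.59 and 46.4 and between 3.92 and 55.9, and atrial markers between 38.3 and 165.9 and between 77.7 and 687. None of the members of these 4 lists passed the threshold, and the atrial sum was nearly all *Nppa*. Alternatives were DESeq2 (version 1.42.0), RLE and upper-quartile factors, other filters, protein-coding genes without mtDNA-encoded ones, scaling on cardiomyocyte markers, sex or the replicate number (as a block) as a further term, limma voom with sample quality weights (version 3.58.1), hearts left out, and other added counts or medians for ratios. The sex term was taken from counts of *Xist* against Y-linked genes and not from a label. By these counts 3 Ctrl hearts were on the *Xist* side and 5 on the Y-linked side, against 2 and 7 hMut hearts. Protein sequences were not used here, and 1 member counted in the totals is not reported by name or drawn.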

Additional observations from a re-analysis of the deposited data

Results flagged for a closer look

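A gap criterion for 1 heart far from the rest of its group (Dixon's, at the 95% level) was applied to 62 groups of values, for the named members and the paralog ratios, and marked 4 of them. Chance marks about 1 in 20 groups, so that about as many are marked by chance alone. The CPM of *Slc25a30* in hMut 9 was 16.4, against 11.4 to 13.7 in the other hMut hearts. The log2 ratio of *Slc25a13* to *Slc25a12* was -0.509 in Ctrl 6, against -0.716 to -0.631 in the other Ctrl hearts. The log2 ratio of *Slc25a33* to *Slc25a36* was -1.43 in hMut 8, against -2.56 to -2.20 in the other hMut hearts. The log2 ratio of *Slc25a39* to *Slc25a40* was 3.14 in Ctrl 4, against 2.69 to 2.90 in the other Ctrl hearts, and this heart lay on the side of the hMut hearts.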

How the results depend on the processing

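*Slc25a5* stayed past the threshold under all 28 alternatives (log2 fold change 0.28 to 0.58, adjusted p 1.09e-06 to 0.0103), and the *Slc25a5* to *Slc25a4* and *Slc25a39* to *Slc25a40* ratios under all 22 of theirs. *Slc25a39* stayed past it under 27 of 28 and *Slc25a28* under 14 of 28. The counts of called members were 3 higher and 4 lower with DESeq2 (*Slc25a1*, *Slc25a12*, *Slc25a13* and *Slc25a42* in addition), 2 and 0 with no filter on low counts, 7 and 0 with scaling on cardiomyocyte markers, 3 and 7 by limma voom with sample quality weights, and 2 and 0 without hMut 6 and hMut 9. Those that limma voom called in addition were *Slc25a1*, *Slc25a3*, *Slc25a4*, *Slc25a12*, *Slc25a13*, *Slc25a16* and *Slc25a42*. Over all genes, 749 were called in the main test, 1524 with DESeq2, 463 with no filter, 4594 with the cardiomyocyte scaling, of which 4501 were higher, 2081 by limma voom with quality weights, 431 without hMut 6 and hMut 9, and 395 to 1792 with 1 library left out.

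The cardiomyocyte scaling moved the median of all genes by 0.23 and the member median to 0.11. The class medians moved to 0.35 (nucleotide), 0.0768 (amino acid), 0.12 (carboxylate), 0.0824 (metal) and 0.0906 (cofactor). Relative to all genes the member median stayed at -0.12. This is no check of the relative value, since a change of library scale moves all genes by nearly the same amount. Without hMut 6 and hMut 9 the member median relative to all genes was -0.05. The cardiomyocyte scaling turned *Slc25a11* (0.0403), *Slc25a20* (0.0442), *Slc25a22* (0.0768), *Slc25a28* (0.0011), *Slc25a37* (0.16), *Slc25a40* (0.14) and *Slc25a25* (0.25) positive. *Slc25a36*, near 0, turned negative with upper-quartile factors (-0.012), without mtDNA-encoded genes (-0.0019), with sex as a covariate (-0.0199), with the block (-0.018) and without hMut 6 and hMut 9 (-0.0410), where the *Slc25a24* to *Slc25a23* ratio became -0.0406. *Slc25a25* turned to 0.0223 with sex as a covariate.

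With each heart left out in turn, 2 to 4 members were called higher and 0 to 7 lower. Without hMut 2, 11 members were called in all, beside 1792 of all 16136 tested genes. With all hearts kept, 749 of 16195 genes were called. Over the hearts left out in turn, *Slc25a36* lay between -0.0334 and 0.0432 and *Slc25a25* between -0.0573 and 0.0711. The *Slc25a24* to *Slc25a23* ratio lay between -0.0175 and 0.0772. The cause of these shifts was not tested. By CPM in place of TPM, *Slc25a4* made up 54.15% of the family in Ctrl. Without mtDNA-encoded genes the summed family TPM was 12860 in Ctrl and 11600 in hMut.

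Hearts with the same replicate number mostly did not deviate together. The correlations of their deviations ran from -0.225 to 0.339 and were over 0.1 in 1 of 8 pairs. Of 8 hMut hearts, 1 was closest to its own number. Expression alone cannot show whether the numbers pair hearts by litter or handling. With the replicate number as a block, 1 member (*Slc25a5*) was called higher and 0 lower, and 195 genes in all, with an adjusted p of 0.0708 for *Slc25a39* and 0.0561 for *Slc25a28*.

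Depth left 8 members untested, with at most 19 counts in any heart. With no filter, 46 of the 47 were tested, and those called were *Slc25a5* and *Slc25a39*.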
